A study of Mus musculus with 7 samples.

Results

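Scavenger receptors are the surface proteins and secreted helpers with which macrophages recognise bacteria, modified lipoproteins and dying cells. In the spleen they mark distinct resident macrophages that filter the blood, in the marginal zone and in the red pulp. The 6 genes described here are Marco, Msr1, Cd36, Siglec1, Cd5l and Mrc1, taken by gene symbol with every probe set that the platform annotation gives to them and to no other gene. They have 13 probe sets of 22626 on the array once controls are left out. Marco, Cd5l and Mrc1 have 1 each, Cd36 and Siglec1 have 3 each and Msr1 has 4. Of the 13, 9 were bright enough to be tested, and each of the 6 genes had at least 1 of these.

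Spleen cells were taken on day 4 from female C57BL/6 mice aged 9 to 12 weeks that had been irradiated with 10.0 Gy and given donor splenocytes 4 to 6 h later. The anti-ICOSL day 0 and anti-ICOSL day 3 groups (2 arrays each) received C3H/HeN splenocytes and an antibody against ICOSL, the ligand of the T cell costimulator ICOS. The stated schedule was 500 µg at the start on day 0 or day 3 and 200 µg every other day after that. With harvest on day 4, a start on day 3 left no time for a 200 µg dose. The isotype group (2 arrays) received the same donor cells and control rat IgG, for which no starting day is given, and the syngeneic group (1 array) received C57BL/6 splenocytes and its label names no antibody. Donor strain, alloreaction and antibody injection cannot be told apart between the isotype and syngeneic groups. RNA of allogeneic mice was combined before hybridisation to 2 arrays, so the p-values measure the spread between arrays, which may be technical.

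Array medians lay between 145.3 and 174.3 signal units, and the arrays of a group differed at least 2-fold in 487 to 660 of 15372 tested probe sets. Gapdh control probe sets at both ends of the transcript gauge RNA quality, and the signal at the 3' end divided by that at the 5' end was 0.794 and 0.821 on day 0 arrays, 0.838 and 0.865 on day 3 arrays, 0.784 and 0.767 on isotype arrays and 0.957 on the syngeneic array. The Gapdh ratio was highest on the array with the highest signals of most members, and its part in the results was not tested. The same quotient for Actb was 1.02 and 0.982 on day 0 arrays, 0.967 and 0.991 on day 3 arrays, 1.00 and 1.02 on isotype arrays and 1.03 on the syngeneic array, a narrower range with the anti-ICOSL arrays at or below isotype array 2. Resident macrophage transcripts were plain on the syngeneic array, with signals of 10891 for Slc40a1, the iron exporter, 8748 for Vcam1, an adhesion molecule, and 6722 for C1qa, a complement chain. Cd209b, a lectin of marginal zone macrophages, stayed between 5.50 and 25.3 on the 7 arrays.

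On the isotype arrays 3 of the 6 genes, Cd5l, Mrc1 and Marco, fell to between 10.1% and 14.0% of the syngeneic signal, where limma called 4.12% of all tested probe sets lower and 2.49% higher. Msr1 and Cd36 were lower by their tested probe sets without passing the test, and the probe sets of Siglec1 went opposite ways. On both sets of anti-ICOSL arrays Marco had 2.68 and 2.76 times its isotype signal, and Cd5l and Mrc1 were higher by smaller factors. No member passed the test there, and neither did any other of the 15372 tested probe sets. Because the RNA came from whole spleen cell suspensions, fewer macrophages and less RNA per macrophage cannot be told apart.

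Marco, Cd5l and Mrc1 are shown first because their single probe sets carry the clearest values. The promoters of these 3 genes are printed below, since the genes moved together between isotype and syngeneic arrays. Each holds the 250 bases before the RefSeq start site and the 50 bases from it on (GRCm38.p6), and capitals mark GAGGAA or its reverse complement TTCCTC, the core of sites bound by PU.1, the myeloid transcription factor that Spi1 encodes. The windows are chr1:120504975-120505274 on the minus strand for Marco, chr3:87357631-87357930 on the plus strand for Cd5l and chr2:14229164-14229463 on the plus strand for Mrc1.
Marco: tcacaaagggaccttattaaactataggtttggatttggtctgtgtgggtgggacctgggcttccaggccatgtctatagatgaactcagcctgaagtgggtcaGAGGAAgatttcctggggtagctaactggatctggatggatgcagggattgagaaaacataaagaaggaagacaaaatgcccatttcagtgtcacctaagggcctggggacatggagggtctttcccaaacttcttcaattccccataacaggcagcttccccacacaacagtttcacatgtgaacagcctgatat
Cd5l: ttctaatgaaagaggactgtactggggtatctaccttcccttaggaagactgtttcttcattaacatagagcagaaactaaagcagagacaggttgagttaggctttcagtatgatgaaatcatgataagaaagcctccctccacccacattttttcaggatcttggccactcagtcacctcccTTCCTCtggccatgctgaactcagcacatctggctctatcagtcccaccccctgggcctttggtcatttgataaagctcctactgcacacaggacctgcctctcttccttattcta
Mrc1: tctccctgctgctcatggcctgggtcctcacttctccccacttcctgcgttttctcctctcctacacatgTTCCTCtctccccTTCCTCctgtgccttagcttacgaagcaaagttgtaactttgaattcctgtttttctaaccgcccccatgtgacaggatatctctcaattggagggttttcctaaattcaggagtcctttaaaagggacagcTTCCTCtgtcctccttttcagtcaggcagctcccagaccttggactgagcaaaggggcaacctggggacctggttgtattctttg
With the start site counted as 0, the motif begins at -146 in Marco, at -66 in Cd5l, and at -180, -167 and -35 in Mrc1. The Marco motif reads along the gene and the others read on the opposite strand. A promoter was found for 4 of the 6 members, and that of Cd36 holds no GAGGAA on either strand. Of 32851 mouse promoters of this length 28.3% hold the motif, so its presence is a description and no sign of binding. The AP-1 site TGAGTCA (in 5.20% of all promoters), the MAF recognition core TGCTGAC (4.67%), the E-box CACGTG (7.15%), the TATA box TATAAA (13.6%) and the direct repeat bound by liver X receptors (0.0152%) were looked for on both strands as well. None was in the 4 windows, so none overlapped GAGGAA.

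Marco is a collagen-like class A scavenger receptor of marginal zone macrophages that binds bacteria. Its signal was 406 and 428 on the day 0 arrays, 428 and 434 on the day 3 arrays, 154 and 157 on isotype arrays, and 1114 on the syngeneic array. All 4 anti-ICOSL arrays lay above both isotype arrays and below the syngeneic one, and the arrays of each group were close together. In isotype against syngeneic spleens Marco fell by 2.50 on the log2 scale (SE 0.19, limma adjusted p = 0.00242). Fold changes are on log2(signal + 50), which understates changes at low signal. Marco stood at rank 102 of 15372 for the size of its fall.

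Marco differed from isotype by a log2 change of 1.18 on day 0 arrays (SE 0.15, adjusted p = 0.154) and of 1.22 on day 3 arrays (SE 0.15, adjusted p = 0.189). These are mean signals of 417 ± 15.4 and 431 ± 4.42 against 156 ± 2.14 (SD, n = 2 each), or ratios of 2.68 and 2.76. The anti-ICOSL levels correspond to 37.5% and 38.7% of the syngeneic signal, against 14.0% on isotype arrays. With both anti-ICOSL groups pooled the log2 change was 1.20 (SE 0.13, adjusted p = 0.113), rank 33 by size and rank 8 by p of 15372 probe sets. By limma 0 probe sets passed in this comparison, while 1438 (9.35%) had an unadjusted p under 0.05. With fewer dim probe sets tested (a filter at the 60th percentile), the adjusted p of Marco was 0.0338 for day 0, 0.0400 for day 3 and 0.0220 for both. With limma's trend and robust options it was 0.0389 for day 0 and 0.0162 for both, and with single arrays left out it went up to 0.668, 0.619 and 0.443.

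Cd5l encodes a soluble protein of tissue macrophages with scavenger receptor domains, also called apoptosis inhibitor of macrophages. Its signal was 2686 and 2223 on the day 0 arrays, 1821 and 1988 on the day 3 arrays, 1308 and 1452 on isotype arrays, and 12305 on the syngeneic array. The day 0 arrays were the highest of the allogeneic arrays, the day 3 arrays came next, and no groups overlapped. Cd5l fell by 3.11 in isotype against syngeneic spleens (SE 0.22, adjusted p = 0.00231). Against isotype its log2 change was 0.80 on day 0 arrays (SE 0.18, adjusted p = 0.498) and 0.45 on day 3 arrays (SE 0.18, adjusted p = 0.470). These levels were 19.9% and 15.5% of the syngeneic signal, against 11.2% on isotype arrays.

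Mrc1 encodes the macrophage mannose receptor CD206, an endocytic lectin of red pulp macrophages that sinusoidal endothelium carries as well. Its signal was 630 and 509 on the day 0 arrays, 523 and 476 on the day 3 arrays, 366 and 322 on isotype arrays, and 3423 on the syngeneic array. The anti-ICOSL groups overlapped each other, and both lay above isotype. Mrc1 fell by 3.14 in isotype against syngeneic spleens (SE 0.22, adjusted p = 0.00231), at rank 34 of 15372 for the size of its fall, next to Cd5l at rank 35. Its log2 change from isotype was 0.65 on day 0 arrays (SE 0.18, adjusted p = 0.578) and 0.48 on day 3 arrays (SE 0.18, adjusted p = 0.462).

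**Figure D1:**
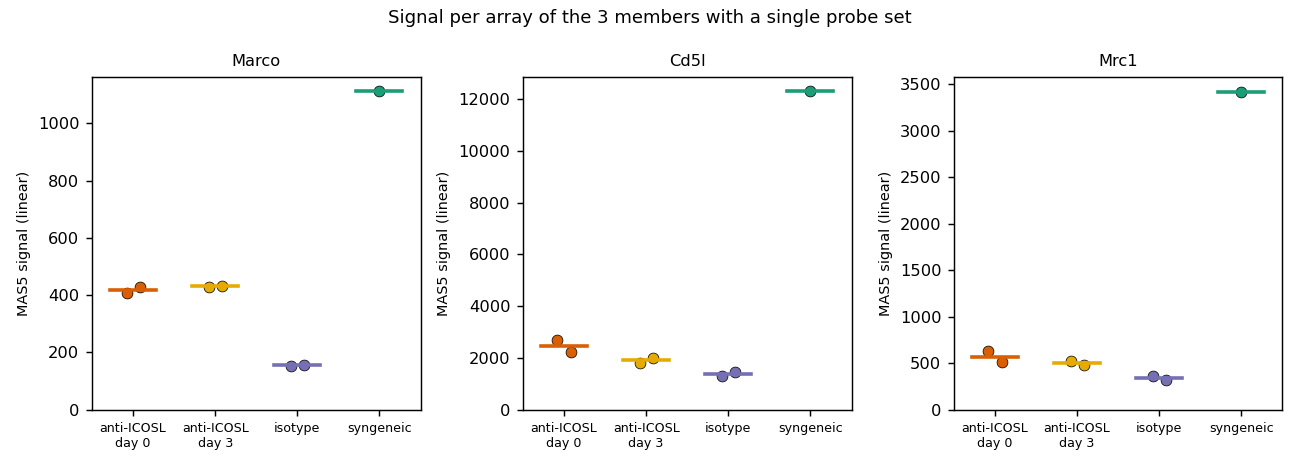
MAS5 signal of Marco, Cd5l and Mrc1 on a linear axis, with 1 point per array and a bar at the mean of each group. The anti-ICOSL arrays lie between the isotype arrays and the single syngeneic array for each gene, closest to syngeneic for Marco (37.5% and 38.7% of its signal).

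Msr1, the class A scavenger receptor known for uptake of modified low-density lipoprotein and of bacteria, has 4 probe sets, of which 2 were tested. Its brightest probe set (1422062_at) had signals of 176 and 155 on day 0 arrays, 116 and 176 on day 3 arrays, 119 and 180 on isotype arrays and 299 on the syngeneic array. The 3 allogeneic groups overlapped and all lay below the syngeneic array. The log2 change in isotype against syngeneic spleens was -0.82 (SE 0.29, adjusted p = 0.159). Its log2 change from isotype was 0.13 on day 0 arrays (95% interval -0.45 to 0.70) and -0.03 on day 3 arrays (-0.60 to 0.54). Another tested probe set of Msr1 (1448061_at) gave -0.79 for isotype against syngeneic, 0.44 for day 0 and 0.24 for day 3. Its signals on day 3 arrays, 89.2 and 203, spanned those of both isotype arrays, 94.3 and 125. The other two probe sets of Msr1 had group means below the minimum of 99.7 signal units in every group and were not tested. For 1425434_a_at the means were 80.7, 40.1, 52.2 and 41.1 in day 0, day 3, isotype and syngeneic spleens, so isotype was not lower than syngeneic. For 1425435_at they were 8.94, 8.70, 10.6 and 31.6 in the same order.

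Cd36 is a class B scavenger receptor and fatty acid carrier that endothelium, platelets and marginal zone B cells share with macrophages. Its brightest probe set (1450883_a_at) had signals of 153 and 154 on day 0 arrays, 140 and 121 on day 3 arrays, 133 and 123 on isotype arrays and 254 on the syngeneic array. The day 0 arrays lay above isotype by a small margin, and the day 3 arrays overlapped isotype. The log2 change in isotype against syngeneic spleens was -0.77 (SE 0.19, adjusted p = 0.0717), which missed the threshold of 0.05. Against isotype it was 0.20 on day 0 arrays (95% interval -0.19 to 0.58) and 0.02 on day 3 arrays (-0.36 to 0.41). A further probe set of Cd36 (1423166_at) gave -0.53 for isotype against syngeneic (adjusted p = 0.272), -0.01 for day 0 and 0.11 for day 3. It reached the minimum of 99.7 only in day 3 and syngeneic spleens, so being higher there was part of its choice. The remaining one (1450884_at) had group means of 43.2, 44.9, 18.6 and 48.4 signal units in day 0, day 3, isotype and syngeneic spleens and was not tested.

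Siglec1 (CD169), a sialic acid-binding lectin of metallophilic macrophages at the inner edge of the marginal zone, gave no single pattern. Its brightest probe set (1427706_a_at) had signals of 139 and 236 on day 0 arrays, 65.2 and 258 on day 3 arrays, 91.3 and 35.2 on isotype arrays and 20.5 on the syngeneic array. The syngeneic array was the lowest here, and the day 3 arrays spanned the day 0 values and overlapped isotype. The log2 change was 0.64 for isotype against syngeneic (SE 0.61, adjusted p = 0.594), 1.09 for day 0 against isotype (SE 0.50, adjusted p = 0.736) and 0.78 for day 3 against isotype (SE 0.50, adjusted p = 0.629). Only the means of the anti-ICOSL groups brought this probe set past the brightness minimum.

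Another probe set of Siglec1 (1422161_at) had signals of 57.6 and 43.9 on day 0 arrays, 81.7 and 86.4 on day 3 arrays, 45.8 and 11.3 on isotype arrays and 125 on the syngeneic array. Here the syngeneic array was the highest, and it alone reached the minimum for testing, so a difference from the other groups was built into the choice. The log2 change was -1.19 for isotype against syngeneic (SE 0.30, adjusted p = 0.0702), 0.39 for day 0 (adjusted p = 0.806) and 0.81 for day 3 against isotype (adjusted p = 0.400). A dimmer probe set (1427668_at), not tested, had 7.80 and 13.5 on day 0 arrays, 9.82 and 8.66 on day 3 arrays, 4.49 and 14.3 on isotype arrays and 74.7 on the syngeneic array. The probe sets of Siglec1 therefore disagreed on the direction between isotype and syngeneic spleens, and no direction is given for the gene.

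**Figure D2:**
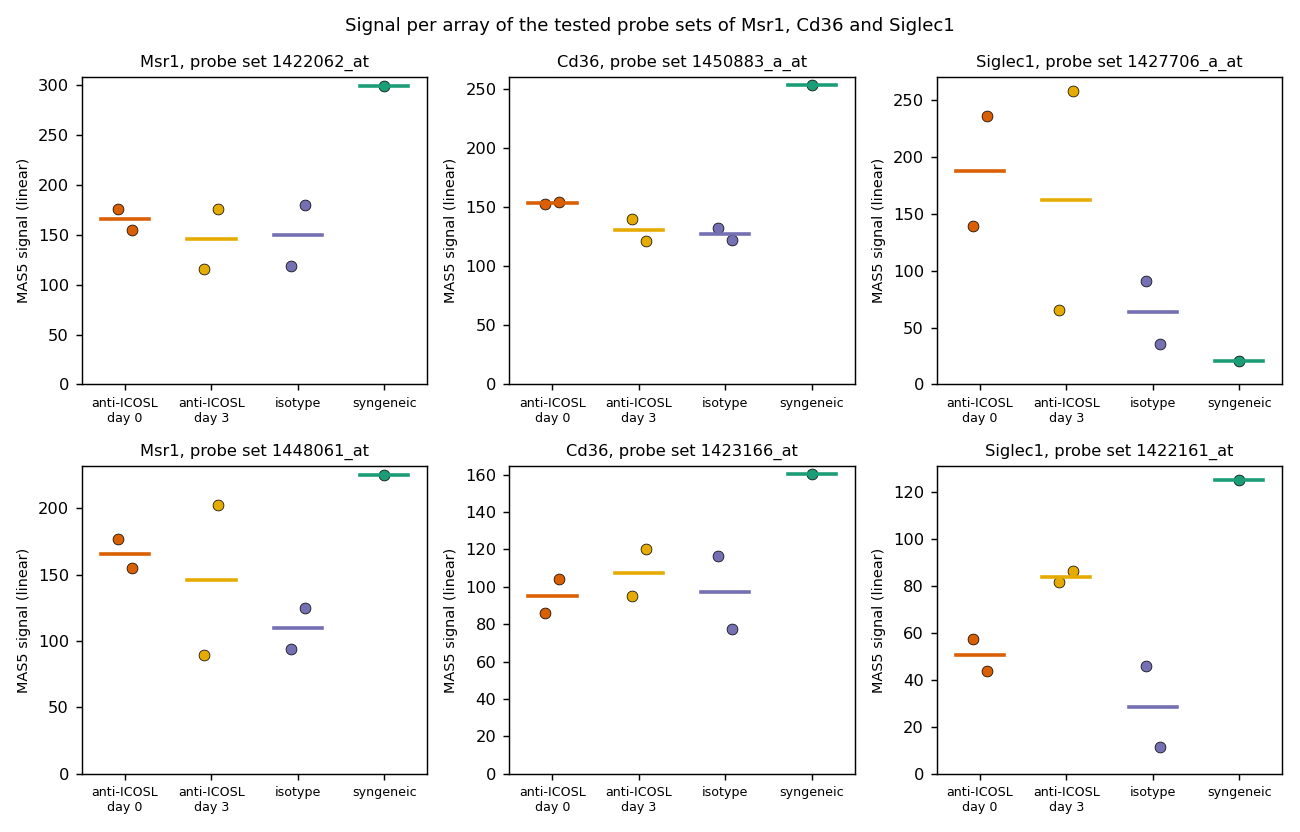
MAS5 signal of the tested probe sets of Msr1, Cd36 and Siglec1 on linear axes that differ between panels, with 1 point per array and a bar at the group mean. The syngeneic array is the highest in 5 of the 6 panels and the lowest for Siglec1 probe set 1427706_a_at, where it stood at 20.5.

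Taking the brightest probe set of each gene, limma called 3 of 6 lower in isotype against syngeneic spleens and 0 higher. Of all tested probe sets 4.12% were called lower and 2.49% higher. The median log2 change of the 6 was -1.66 beside -0.01 over all tested probe sets. Over all 9 tested probe sets of the members the median was -0.82. These 9 include probe sets of Cd36 and Siglec1 that reached the brightness minimum in some groups only. Against isotype, limma called 0 of 6 for day 0 or for day 3, as did 0 of all 15372 probe sets. The medians were 0.73 and 0.47, beside 0.02 and 0.03 over all tested probe sets, and over the 9 probe sets of the members 0.44 and 0.45. An unadjusted p under 0.05 was reached by 3 of 6 members in each of these comparisons, namely Marco, Cd5l and Mrc1, and by 1103 (7.18%) and 1573 (10.2%) probe sets in all. Arrays did not overlap, with anti-ICOSL higher, for 5 of 6 members on day 0, against 19.4% of tested probe sets, and for 3 of 6 on day 3, against 24.3%. At least 2-fold higher without overlap were Marco and Siglec1 on day 0, against 0.748% of probe sets, and Marco on day 3, against 1.4%. Siglec1 reached the brightness minimum only through the anti-ICOSL groups, so being higher there was part of its choice and it lends these counts no support. Among the 5 members that reached the minimum in all 4 groups, which were singled out after their values were seen, 4 did not overlap on day 0 and 3 on day 3, Marco alone was at least 2-fold higher, and the medians were 0.65 and 0.45. The day 0 and day 3 comparisons share the isotype arrays and are no independent observations of them.

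The antibody schedules were also compared directly. By harvest they differed in both the time under antibody and the dose given, and these cannot be told apart. No member differed between day 0 and day 3 by limma (0 of 6 with an adjusted or unadjusted p under 0.05, against 0 and 1043 of 15372 probe sets, or 6.79%), and the median log2 change was 0.17. Cd5l had the smallest adjusted p, with a log2 change of 0.35 (SE 0.18, 95% interval -0.07 to 0.78, adjusted p = 0.762). The change of Marco was -0.04 (95% interval -0.41 to 0.33), so differences within those bounds are not excluded with 2 arrays a group. The bounds are no limit of detection, since the Marco changes of 1.18 and 1.22 from isotype did not pass either. By the brightest probe sets, day 0 arrays lay above day 3 arrays without overlap for Cd5l and Cd36, or 2 of 6 members, where 18.6% of all tested probe sets did. The arrays overlapped for the other tested probe set of Cd36 (1423166_at, log2 change -0.11). Over all 9 tested probe sets 2 lay higher and 1 lower without overlap, the lower being Siglec1 probe set 1422161_at (-0.41).

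**Figure D3:**
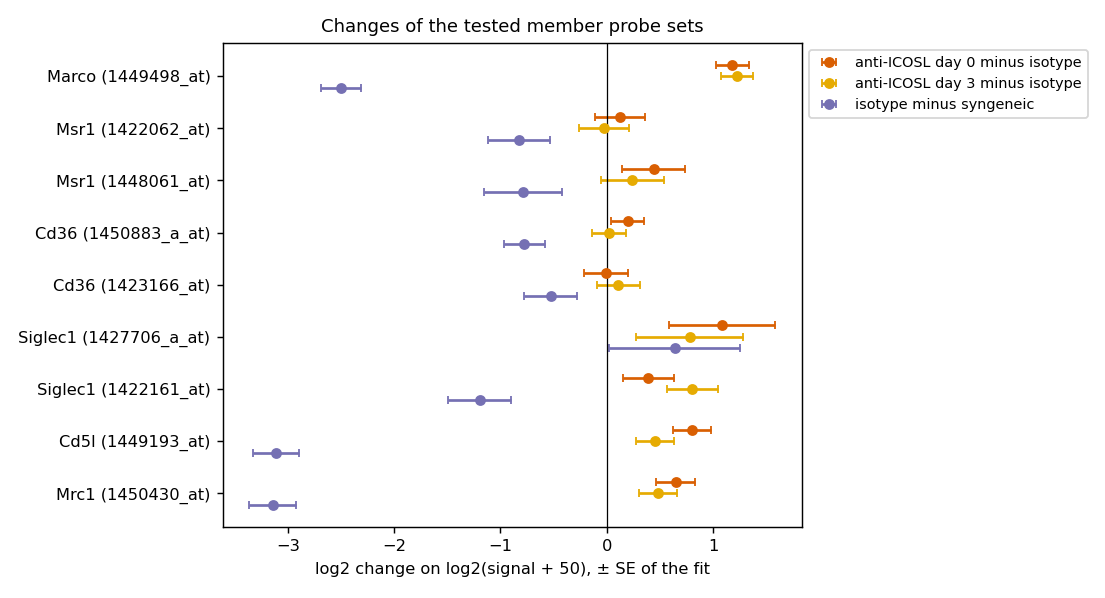
Log2 changes of the 9 tested probe sets on log2(signal + 50), with bars for the SE of the fit. In isotype minus syngeneic, Cd5l, Mrc1 and Marco lie between -3.14 and -2.50, and in both anti-ICOSL comparisons Marco lies near 1.2 with a narrow error, while Siglec1 probe set 1427706_a_at has the widest one.

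The other genes of the family and of the same cells were read from lists chosen with earlier results of these data known. Counts of list genes that fell or rose in isotype against syngeneic spleens stand beside 4.12% and 2.49% of all tested probe sets. For day 0 or day 3 against isotype, and for day 0 against day 3, limma called 0 of all 15372 tested probe sets. A count of 0 in these comparisons is therefore nothing particular to a list. Of 16 other scavenger receptor genes 13 had a probe set and 8 were tested. In isotype against syngeneic spleens 5 of the 8 fell and 0 rose, with a median of -1.58. Of the 6 that reached the brightness minimum in all 4 groups, 4 fell. Lrp1, a large endocytic receptor, stood at 149 ± 12.0 against 1216 (log2 change -2.67, adjusted p = 0.00353). Cd68, a lysosomal glycoprotein of macrophages, stood at 388 against 2290 (-2.42), and Cd163, the haemoglobin scavenger receptor, at 66.5 against 417 (-2.01, adjusted p = 0.00722). Cd163 reached the minimum only on the syngeneic array, so a difference was built into its choice. Scarb1, the receptor for high-density lipoprotein, and Scarb2, a lysosomal membrane protein, fell as well (-1.72 and -1.44).

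Against isotype 0 of the 8 passed, as did 0 of all 15372 tested probe sets. The medians of the 8 were 0.18 on day 0 and 0.22 on day 3 arrays. Cd163 was 56.7 on day 0 and 65.3 on day 3 arrays against 66.5 on isotype arrays. These means lay below the brightness minimum of 99.7, so no contrast with Marco can be read from them, and none was tested. Scara5, a class A receptor known for ferritin uptake, was 76.6 and 74.7 on day 0 arrays, 116 and 139 on day 3 arrays, 5.30 and 21.9 on isotype arrays and 3.06 on the syngeneic array. Its log2 changes from isotype were 0.99 and 1.49 (adjusted p = 0.350 and 0.189). Scara5 reached the minimum only through the day 3 mean, so being higher there was part of its choice, and its other probe set, not tested, stayed between 9.48 and 32.6 on the 7 arrays.

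Among lectins and sialic acid receptors of macrophages, 14 of 16 had a probe set and 8 were tested. In isotype against syngeneic spleens 4 fell, Siglece, Clec4n, Clec4a2 and Clec10a, and 1 rose, Lgals3, the galectin that activated macrophages and T cells make (7456 against 1566, log2 change 2.22, adjusted p = 0.00328). Of the 4 lectins that reached the minimum in all 4 groups, Clec4n fell and Lgals3 rose. Clec4a2 reached it only on the syngeneic array, Clec10a only through the anti-ICOSL groups and Siglece in every group but isotype, so a difference from the groups below it was built into their choice. The fall of Clec10a, 16.4 against 78.5, lay below the minimum in both groups. Clec4n (dectin-2), a receptor for fungal sugars, stood at 820 against 5640 (-2.71). Clec10a, a galactose-binding lectin of macrophages and dendritic cells, was 164 and 167 on day 0 arrays, 104 and 99.2 on day 3 arrays, 16.3 and 16.6 on isotype arrays and 78.5 on the syngeneic array. Its day 0 and day 3 arrays both exceeded the syngeneic array. The log2 change of Clec10a from isotype was 1.70 on day 0 (SE 0.15, adjusted p = 0.0853) and 1.19 on day 3 arrays (SE 0.15, adjusted p = 0.189), differences that its choice favoured. In either comparison 0 of 8 lectins passed, as did 0 of all 15372 tested probe sets.

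Of 14 regulators and growth factor genes, 12 were tested. In isotype against syngeneic spleens 2 fell and 1 rose. Spic, which red pulp macrophages need for their development, stood at 172 ± 40.7 against 2262 (-3.39, adjusted p = 0.00815), and Csf1r, the receptor for the macrophage growth factor, at 1986 against 10891 (-2.43). Csf1, the growth factor itself, rose to 380 ± 31.6 against 122 (1.32, adjusted p = 0.0184). Spi1, which encodes PU.1, was 267 against 540 (-0.91, adjusted p = 0.106). Nr1h3, the liver X receptor that marginal zone macrophages need, was 217 and 275 on day 0 arrays, 307 and 263 on day 3 arrays, 135 and 148 on isotype arrays and 275 on the syngeneic array. The anti-ICOSL arrays of Nr1h3 lay above isotype and around the syngeneic level, with log2 changes of 0.62 and 0.81 (adjusted p = 0.590 and 0.364). Against isotype 0 of 12 passed, as did 0 of all 15372 tested probe sets.

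Of 14 identity genes of splenic macrophages 13 were tested, and 12 fell in isotype against syngeneic spleens (median -2.48), where 4.12% of all tested probe sets fell. Cd5l and Mrc1 lay within their range of -3.65 for Slc40a1 to -0.31 for Itgam. By limma 0 of all 15372 tested probe sets passed for day 0 or day 3 against isotype, and so 0 of these 13. All 13 had higher means on day 0 arrays and on day 3 arrays than on isotype arrays. Their medians were 0.83 and 0.53, beside 0.02 and 0.03 over all tested probe sets. With both anti-ICOSL groups pooled their changes ran from 0.17 to 0.88, below the 1.20 of Marco and around the 0.63 of Cd5l and the 0.56 of Mrc1, and these differences between genes were not tested.

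**Figure D4:**
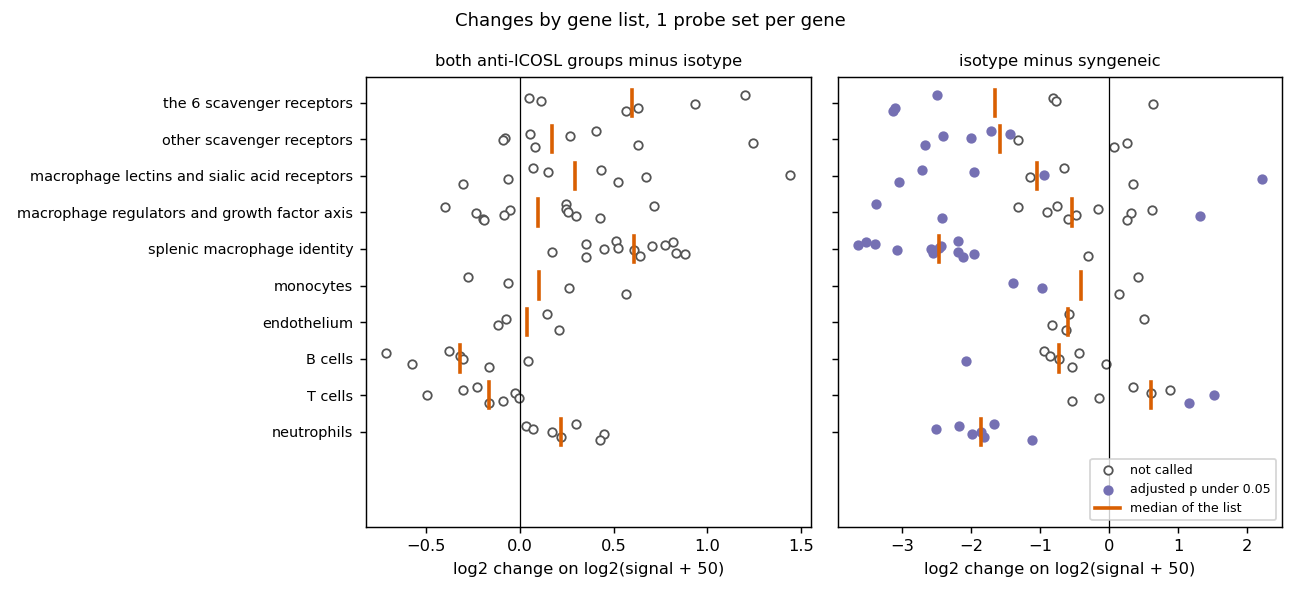
Log2 change of each tested gene in 10 lists, for both anti-ICOSL groups minus isotype and for isotype minus syngeneic, with filled points for an adjusted p under 0.05 and a bar at the median of the list. Macrophage identity genes have the lowest median in isotype minus syngeneic (-2.48) among the lists drawn, and no point is filled in the anti-ICOSL panel.

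Markers of other cells that can carry these receptors were read in the same way, beside the same 4.12% lower and 2.49% higher of all tested probe sets. Endothelial markers, of which 4 of 9 were tested and 3 (Cdh5, Tek and Emcn) were dim on every array, summed to between 958 and 1026 on day 0, 1241 and 1263 on day 3 and 1003 and 1175 on isotype arrays, against 1496 on the syngeneic array. Of these 4, 0 passed in isotype against syngeneic (median -0.60). B cell markers, 8 of 9 with a probe set, summed to between 11442 and 12249 on day 0, 11150 and 11805 on day 3 and 15459 and 16874 on isotype arrays, against 25149 on the syngeneic array, and 1 of 7 tested, Fcer2a, fell. Against isotype 0 of 7 B cell markers passed on day 0 or day 3 arrays, with medians of -0.32 and -0.44. Megakaryocyte and platelet markers, 7 of 9 with a probe set, summed to between 1362 and 1428 on day 0, 1433 and 1565 on day 3 and 1011 and 1347 on isotype arrays, against 1212, and 0 of 7 passed. The 3 adipocyte genes with a probe set were too dim to test.

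Dendritic cell markers, 6 of 7 tested, summed to between 1419 and 1811 on day 0, 1803 and 1817 on day 3 and 1313 and 1806 on isotype arrays, against 1495, and 0 passed. Monocyte markers summed to between 4184 and 4237 on day 0, 2195 and 2321 on day 3 and 2793 and 3183 on isotype arrays, against 6252, and 2 of 4, Lyz2 and Fn1, fell in isotype against syngeneic spleens. Between day 0 and day 3, and for each against isotype, 0 of 4 monocyte markers passed. Of neutrophil markers 7 of 7 fell in isotype against syngeneic spleens (sums of 9645 and 10261 against 37153). Of erythroid markers 2 of 5 fell (Gata1 and Klf1), and 2 of 7 T cell markers rose (Cd4 and Thy1). The part of these cells in the changes of the 6 genes was not tested.

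The genes whose pattern was most like that of each member were ranked by Pearson correlation over the 7 arrays among 8956 other genes, as a description. The points share the arrays, and the single syngeneic array weighs heavily, so the value over the 6 allogeneic arrays stands beside it. For Cd5l the nearest were Fos (r = 0.995, 0.968 over the 6), Slc40a1 (0.994, 0.938) and Vcam1 (0.992, 0.926). For Mrc1 they were Slc40a1 (0.997, 0.976), Cyb5a (0.997, 0.968) and Csf1r (0.994, 0.914). Slc40a1 was thus among the 3 nearest genes of both Cd5l and Mrc1. For Marco they were Bcap29 (0.991, 0.979), Adgre5 (0.984, 0.963) and Hmgb3 (0.978, 0.954), genes that differed far less between groups than Marco did (1068, 1107, 935 and 1299 signal units for Bcap29 in day 0, day 3, isotype and syngeneic spleens).

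For Cd36 the nearest were Unc93b1 (0.991, 0.939), Cd96 (0.990, 0.916) and C1qc (0.989, 0.916), and for Msr1 they were Igsf8 (0.995, 0.985), Caprin2 (0.987, 0.970) and Dtwd1 (0.983, 0.964). For Siglec1, read from probe set 1427706_a_at, they were Mc5r (0.994, 0.996), Klk1b21 (0.982, 0.978) and Ak4 (0.969, 0.980), with group means of 41.0 to 179 signal units. With the 6 members averaged as standard scores, Pla2g7 (0.987, 0.958), Fos (0.983, 0.966), Pla2g4a (0.980, 0.924), Vcam1 (0.978, 0.956) and Fcgrt (0.977, 0.966) came first. That average includes Siglec1 probe set 1427706_a_at, for which the syngeneic array was the lowest. Among the members, Cd5l and Mrc1 were most alike (0.991, and 0.915 over the allogeneic arrays), Marco followed both over the allogeneic arrays (0.845 with Cd5l and 0.889 with Mrc1), and Msr1 did not follow Mrc1 there (0.056).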

How the data were processed

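Each array was scored with MAS5 per the submitters' processing notes, and the deposited values are linear signal intensity values, 1 for each probe set (version not given in the sources used here). The 2% trimmed means of the 7 arrays were 500.18 to 500.19, so no further scaling was applied. Per the labels' protocols, 10 µg of RNA was labelled per array.

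Of 22690 probe sets 64 controls were left out. Platform annotation gave 20380 probe sets 1 gene symbol, 691 several and 1555 none. Values were analysed as log2(signal + 50). A probe set was tested if the mean of any group was at or above 99.7, the 40th percentile over all arrays, and 15372 probe sets of 8962 genes met this.

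The 5 comparisons (isotype against syngeneic, day 0, day 3 and both anti-ICOSL groups against isotype, and day 0 against day 3) came from 1 fit over 7 arrays with limma 3.58.1 in R 4.3.3 (3 residual and 3.36 prior degrees of freedom). Two-sided p-values were adjusted with the Benjamini-Hochberg method over all tested probe sets, with a threshold of 0.05. For the single syngeneic array the spread of the other groups stood in. The number of arrays limits the precision.

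Named were all members, at most the 4 list genes with the largest change per comparison, and the 3 genes most alike to each member (5 for their mean), each by its brightest probe set. Scarb2, Spi1, Cd209b and the dim endothelial genes fall outside that rule and were named after their values were seen. Members, lists and tests were chosen with earlier results of these data known. Promoter sequences are from RefSeq. The procedure was tested on simulated data. Alternatives were other pseudocounts (16, 100), no filter or one at the 60th percentile, median centring or quantile normalization, the sample number as a block, the compared groups alone, trend and robust options, every probe set counted, and each allogeneic array left out. Medians over every tested probe set of the members, and over the members at or above the minimum in every group, were added after seeing the data.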

Additional observations from a re-analysis of the deposited data

How the results depend on the processing

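The falls of Marco, Cd5l and Mrc1 in isotype against syngeneic spleens passed under each alternative run (highest adjusted p 0.0280, 0.0256 and 0.0256), so 3 members were called under each, the replicate block included. All probe sets called numbered 1017, but 516 and 406 without isotype array 1 or 2, 542 with no filter, 311 with the compared groups alone, 1616 with a filter at the 60th percentile and 1786 with trend and robust options. Each of these runs kept the single syngeneic array, so how far that array decides the falls was not tested. The median change of the 6 members, -1.66, was -1.83 and -1.47 with pseudocounts of 16 and 100. It was -2.81 with the filter at the 60th percentile, which tests 4 of them. Chosen after seeing the data, it was -2.50 over the 5 members at or above the minimum in every group and -0.82 over all 9 tested probe sets, which also gave 0.44 instead of 0.73 for day 0. Against isotype, 1 member (Marco) instead of 0 was called for day 0, for day 3 and for both groups with that filter, and 1 for day 0 and for both with trend and robust options. With these options 21, 5 and 21 probe sets in all were called, and with the filter 13, 8 and 6, instead of 0. With 1 array left out, the member medians were 0.588 to 0.789 for day 0 and 0.244 to 0.470 for day 3, the lowest without day 0 array 1 and day 3 array 2.

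Signs turned only for changes that were not called, and the cause was not tested. The largest of these in the main setting was the 0.30 of Siglec1 for day 0 against day 3. For Msr1 the turned value was -0.041 for both groups with quantile normalization and -0.021 with median centring. With 1 array left out, Msr1 ran from -0.099 to 0.35 for day 0, from -0.25 to 0.20 for day 3, from -0.17 to 0.27 for both groups and from -0.072 to 0.38 for day 0 against day 3. For Cd36 on day 3 it was -0.089 with quantile normalization and -0.071 with median centring, and with 1 array left out it ran from -0.051 to 0.098. For day 0 against day 3, Marco was 0.022 with median centring, and Siglec1 ran from -0.41 to 1.02 with 1 array left out, both extremes from leaving out a day 3 array. Median centring moved the median of all probe sets in isotype against syngeneic to 0.09, against -0.01, and in day 3 against isotype to -0.08, against 0.03 (Marco stayed at 1.12), and moved the share called higher to 429 of 974, against 383 of 1017. Sample numbers did not pair the arrays (correlations of within-group differences -0.01, 0.07 and 0.04), and the replicate block left 0 members called against isotype (smallest adjusted p 0.380 for day 0, 0.331 for day 3). Signal near the filter limits what can be said of Msr1, Cd36 and Siglec1.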
